A study of Mus musculus with 16 samples.

Results

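MHC class II is the pair of membrane proteins with which macrophages, dendritic cells and B cells show peptides from the endosome to CD4+ T cells. The genes described here are Ciita, Rfx5, H2-Aa, H2-Ab1, H2-Eb1, Cd74, H2-DMa and H2-Oa. They were picked by gene symbol, with the brightest probe set taken for each gene, and all 8 were found among the 19937 genes measured. Each of the 8 had 1 probe set.

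An alpha and a beta chain (H2-Aa with H2-Ab1, or an I-E alpha chain with H2-Eb1) assemble on the invariant chain Cd74, which blocks the groove until the complex reaches the endosome. H2-DM, of which H2-DMa is a chain, then exchanges the remnant of the invariant chain for a peptide, and H2-O, of which H2-Oa is a chain, restrains H2-DM. Transcription needs proteins that sit on the conserved X and Y boxes upstream of these genes, among them RFX5, and the coactivator CIITA, which does not bind DNA itself. Ciita is the switch of the system and is read from several promoters in different cell types. A level over the whole gene does not tell these promoters apart.

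The study compared bone-marrow-derived macrophages of 129sv mice on Affymetrix arrays, with 4 arrays in each of 4 groups. The groups were unstimulated wild-type cells (WT), wild-type cells given the bacterial product LPS (WTSTIM), unstimulated NFAT5 knockout cells (KO) and knockout cells given LPS (KOSTIM). The factor missing in the knockout, NFAT5, drives the cell's response to hypertonic stress. The labels give neither LPS dose nor time, neither the kind of knockout allele nor the number of animals. No label says that the 4 arrays of a group came from separate mice or cultures. In each knockout group, array 4 differed from the others in the markers of sex given below, so these groups did not come from a single animal. Whether the remaining arrays came from separate mice is unknown, and p-values may then reflect largely technical spread. The comparisons ask whether class II genes depend on NFAT5 at rest and after LPS, and whether LPS changes them alike in both genotypes.

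The stretches of sequence before the start sites of 4 members are shown first because the X and Y boxes are the sites at which RFX5 and CIITA act. They are the 150 bases before the annotated start, from RefSeq on GRCm38.p6. Capitals mark GCAAC, the core of the X box, CTGATTGG, a form of the Y box, and CCAAT or its reverse complement ATTGG, which also lies inside CTGATTGG.
H2-Aa, chr17:34287824-34287973, minus strand: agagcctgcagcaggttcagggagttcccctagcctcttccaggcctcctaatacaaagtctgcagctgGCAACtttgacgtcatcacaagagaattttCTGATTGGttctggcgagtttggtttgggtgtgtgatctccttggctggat
H2-Eb1, chr17:34305717-34305866, plus strand: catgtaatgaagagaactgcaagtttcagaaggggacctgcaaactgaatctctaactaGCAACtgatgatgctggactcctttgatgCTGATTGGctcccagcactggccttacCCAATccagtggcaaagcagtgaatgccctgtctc
H2-Oa, chr17:34092229-34092378, plus strand: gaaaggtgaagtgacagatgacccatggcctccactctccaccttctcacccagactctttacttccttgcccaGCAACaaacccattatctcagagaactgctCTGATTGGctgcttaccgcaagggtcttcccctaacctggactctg
Rfx5, chr3:94953958-94954107, plus strand: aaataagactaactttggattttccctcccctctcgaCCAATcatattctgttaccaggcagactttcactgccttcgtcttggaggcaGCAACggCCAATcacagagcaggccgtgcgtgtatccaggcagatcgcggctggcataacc

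In H2-Aa, H2-Eb1 and H2-Oa, GCAAC was followed by CTGATTGG at a start-to-start distance of 30, 29 and 30 bases. Rfx5 held GCAAC and 2 copies of CCAAT on the strand shown and no CTGATTGG. RefSeq windows matched 5 of the 8 members. H2-DMa, the fifth of them, had 2 windows, and neither held the pair. Among 32851 windows of the 250 bases before a start, GCAAC or its complement was in 29.9%, CTGATTGG or its complement in 3.83% and ATTGG or its complement in 33.8%. GCAAC followed by CTGATTGG after 20 to 50 bases was in 25 windows (0.0761%). At a distance of 29 or 30 bases, limits chosen after the sequences were seen, 4 windows held it, those of H2-Aa, H2-Eb1, H2-Oa and H2-Eb2. The letters TGGAAA, the core bound by NFAT proteins, or their complement were in 18.6% of all windows. None of the windows of the 5 members held them, which in so few windows lies near that share. Ciita, H2-Ab1 and Cd74 are named only.

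All levels are log2 values from the robust multi-array average (RMA), a method that puts the arrays on a common scale and compresses changes of dim genes. Nfat5 lay at 9.15, 9.41, 9.34 and 9.67 in WT, at 8.93, 9.03, 9.20 and 8.99 in KO, at 9.95, 10.56, 9.97 and 9.80 in WTSTIM and at 9.29, 9.29, 9.12 and 8.67 in KOSTIM. Without LPS the groups overlapped and the difference of -0.36 was not called (limma adjusted p = 0.602), while with LPS it was -0.98 without overlap (adjusted p = 0.00169). Since the deleted stretch is unknown here, the probe set may lie outside it, so these values do not check the labels. Xist, an RNA of the silenced X chromosome in females, exceeded the Y-linked Kdm5d in 10 arrays (every wild-type one, plus knockout array 4 of each treatment) and lay below it in the other 6. Sex and genotype therefore largely coincide, and values from the 10 arrays alone are given where they end the call of a member, or of another named gene between genotypes or in the difference in response. Array medians ran from 6.76 to 6.86. The macrophage markers Adgre1 and Csf1r gave a signal in every array, at 13.00 to 13.38 and 12.55 to 13.22.

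In unstimulated cells, Ciita, all 3 class II chains, Cd74 and H2-DMa were lower without NFAT5, and for Rfx5 and H2-Oa no difference was called. A call is an adjusted p under 0.05 in limma, with Benjamini-Hochberg adjustment over all 19937 genes. By that rule 6 of the 8 members were lower and 0 higher, against 0.863% of all genes lower and 0.14% higher (1% called in either direction). The members were chosen with earlier results of these data known, so these shares are a description and no test of the set. The median log2 difference of the 8 was -1.72, and that of all genes was 0.00427. The plot of levels by array shows the gap.

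**Figure D1:**
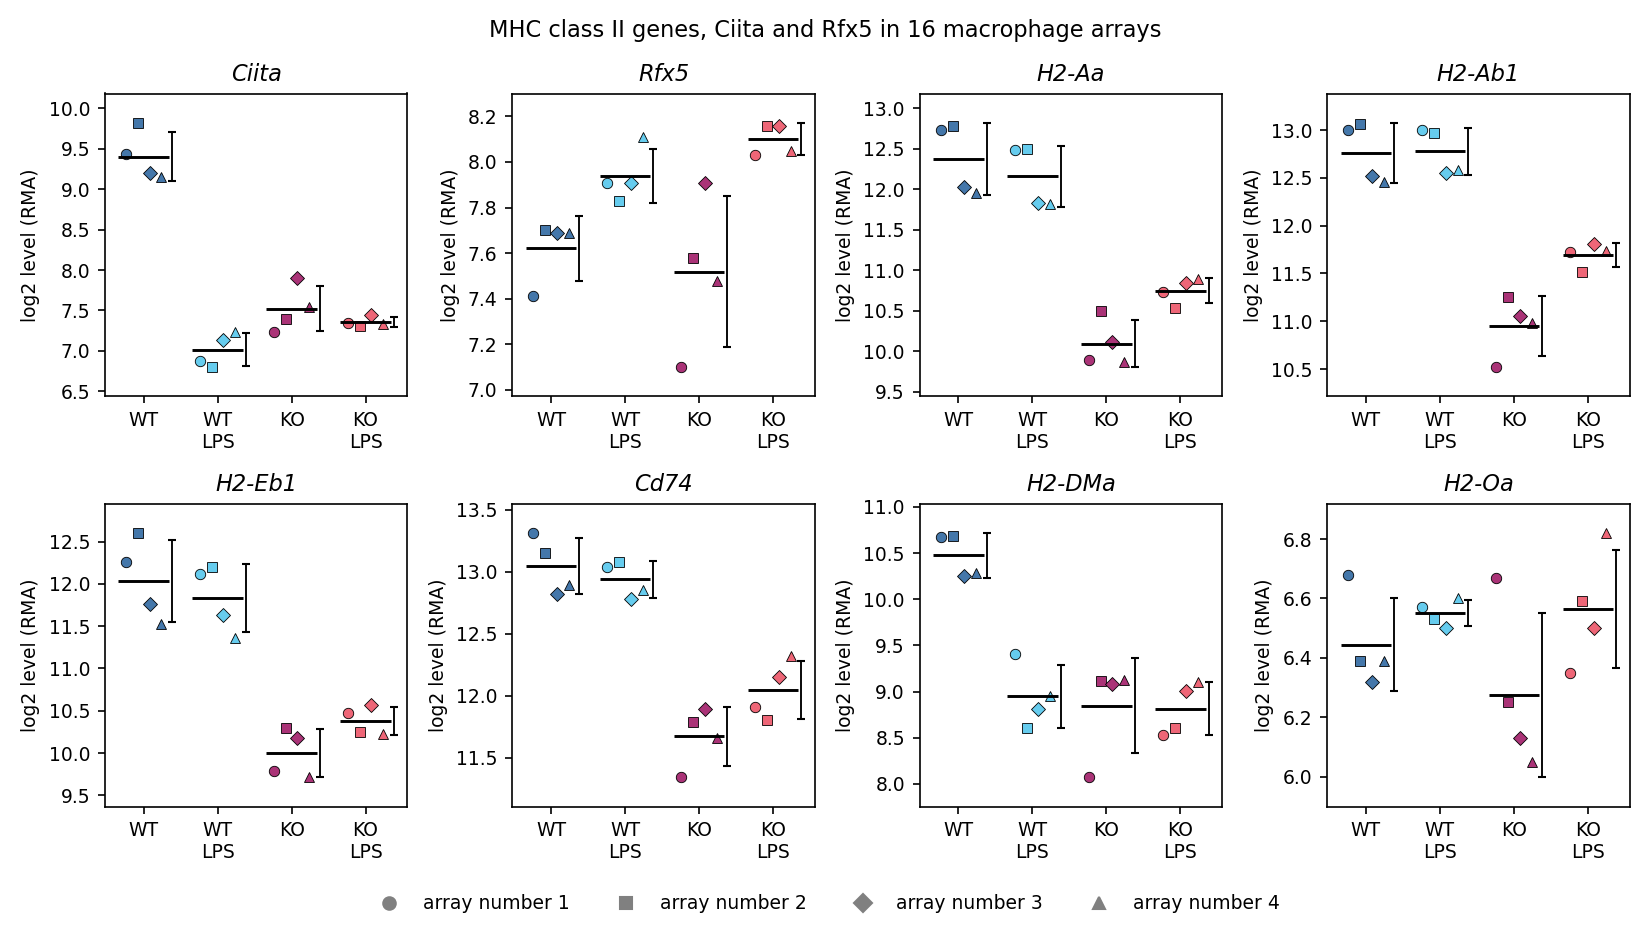
Log2 RMA levels of the 8 genes in each array, by group (x axis), with 4 arrays per group. Symbols give the array number, lines the group mean and bars 1 SD; for Ciita only unstimulated wild-type arrays lie above 9, while for the chains both wild-type groups lie above both knockout groups.

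Ciita lay at 9.44, 9.82, 9.20 and 9.15 in WT and at 7.24, 7.40, 7.90 and 7.54 in KO. Every knockout array was below every wild-type array. The difference was -1.88 ± 0.15 (SE, n = 4 against 4; 3.68-fold lower; limma adjusted p = 1.19e-06), with a 95% interval of -2.20 to -1.56. For Rfx5, the DNA-binding partner, the groups overlapped, with 7.41 to 7.70 in WT and 7.10 to 7.91 in KO. Its difference was -0.10 with a 95% interval of -0.38 to 0.17 (limma adjusted p = 0.925).

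H2-Aa, the alpha chain of I-A, lay at 12.73, 12.78, 12.03 and 11.95 in WT and at 9.90, 10.50, 10.12 and 9.87 in KO. The gap between the lowest wild-type array and the highest knockout array exceeded the range within either group. H2-Aa was 4.85-fold lower in KO (-2.28 ± 0.206, SE; limma adjusted p = 3.65e-06). H2-Ab1, its beta chain, lay at 13.00, 13.06, 12.52 and 12.46 in WT and at 10.52, 11.25, 11.05 and 10.98 in KO, which is 3.51-fold lower (limma adjusted p = 3.65e-06). H2-Eb1, the beta chain of I-E, was 4.11-fold lower, with 11.52 to 12.60 in WT and 9.72 to 10.29 in KO (limma adjusted p = 2.73e-05). Groups did not overlap for any of these chains, though the share of all genes without overlap was not counted. In wild-type cells, arrays 1 and 2 were above arrays 3 and 4 for all 3 chains, without LPS and with it.

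Cd74, the invariant chain, lay at 13.31, 13.15, 12.82 and 12.89 in WT and at 11.34, 11.79, 11.89 and 11.66 in KO. The groups were apart, with a 2.59-fold lower level in KO (-1.37 ± 0.141, SE; limma adjusted p = 1.89e-05). H2-DMa lay at 10.67, 10.69, 10.25 and 10.28 in WT and at 8.07, 9.11, 9.08 and 9.13 in KO. Knockout array 1 was about 1 unit below the other knockout arrays, and all 4 were below the wild type. H2-DMa was 3.09-fold lower (-1.63 ± 0.22, SE; limma adjusted p = 0.00046). It lost the call in the 10 arrays with Xist above Kdm5d, at -1.35 (adjusted p = 0.0807), and with a sex term and replicate block, at -1.24 (adjusted p = 0.163). H2-Oa, whose probe set was dim, lay at 6.32 to 6.68 in WT and 6.05 to 6.67 in KO, with a difference of -0.17 and a 95% interval of -0.44 to 0.10 (adjusted p = 0.834).

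Knockout array 4, the unstimulated knockout array with Xist above Kdm5d, was below the wild-type array of its number by 1.6 for Ciita, 2.08 for H2-Aa, 1.48 for H2-Ab1, 1.8 for H2-Eb1, 1.23 for Cd74 and 1.15 for H2-DMa. In the fit of the 10 arrays, where the lone knockout array per treatment takes its spread from the wild-type groups, 5 of the 8 members were called, all lower, and 58 of all 19937 genes, against 200 in the fit of 16 arrays. Ciita stood at -1.86 in that fit (adjusted p = 0.00895) and H2-Aa at -2.50 (adjusted p = 0.0132). In bulk RNA, fewer class II-bearing cells and less RNA per cell cannot be told apart.

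LPS lowered Ciita and H2-DMa in wild-type macrophages, and for the class II chains and Cd74 no change was called. That made 2 of 8 members lower and 0 higher, beside 30.8% of all genes called (16.8% lower and 14% higher), so the count by itself is close to the background. The median log2 change of the 8 was -0.15, against 0.06 for all genes.

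Ciita fell from the values above to 6.88, 6.8, 7.13 and 7.23 in WTSTIM, with no overlap. The change was -2.39 ± 0.15 (SE; 5.24-fold; limma adjusted p = 5.86e-10), with a 95% interval of -2.71 to -2.07. H2-DMa fell to 9.41, 8.61, 8.81 and 8.95, again below every unstimulated wild-type array. Its change was -1.53 ± 0.22 (SE; 2.88-fold; limma adjusted p = 2.14e-05).

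For the chains and Cd74 the changes were small beside that of Ciita. H2-Ab1 lay at 13.00, 12.97, 12.55 and 12.58 in WTSTIM, a change of 0.01 with a 95% interval of -0.33 to 0.36. H2-Aa lay at 12.48, 12.49, 11.83 and 11.82, a change of -0.22 (95% interval -0.65 to 0.22). The estimate was -0.21 for H2-Eb1 (-0.66 to 0.25) and -0.10 for Cd74 (-0.40 to 0.19). None of these 4 intervals overlaps that of Ciita, and in each gene the 2 groups overlapped. Adjusted p lay between 0.475 and 0.962 for the 4. Between arrays of the same number, all 4 differences were below 0 for H2-Aa (-0.287 to -0.124), H2-Eb1 (-0.395 to -0.131) and Cd74 (-0.265 to -0.0394). For H2-Ab1, 1 of 4 was below 0. With the replicate block none of these genes was called (limma adjusted p = 0.36 to 0.958). Rfx5 was at 7.83 to 8.11 in WTSTIM, above all unstimulated wild-type arrays, but its change of 0.32 missed the call (95% interval 0.05 to 0.59; adjusted p = 0.0735). Rfx5 was called in the 10 arrays (adjusted p = 0.032) and without KO array 1 or KO array 3, which enter only through the shared spread (0.0242 and 0.0343). H2-Oa stood at 6.50 to 6.60, a change of 0.11 (95% interval -0.16 to 0.37).

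LPS raised H2-Aa, H2-Ab1 and Rfx5 in knockout macrophages, and for Ciita and H2-DMa, already low, no change was called. The count was 3 of 8 higher and 0 lower, beside 24.7% of all genes called (12% higher and 12.7% lower). The median change of the 8 was 0.38, against 0.00983 for all genes.

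H2-Ab1 was at 11.72, 11.51, 11.81 and 11.73 in KOSTIM, above all 4 unstimulated knockout arrays, a rise of 0.74 ± 0.164 (SE; 1.67-fold; limma adjusted p = 0.00198). H2-Aa was at 10.73, 10.54, 10.84 and 10.89, a rise of 0.65 ± 0.206 (SE; 1.57-fold; limma adjusted p = 0.0249). Its lowest array with LPS, 10.54, lay just above its highest without, 10.50. H2-Aa lost the call when KO array 1, KO array 4, KOSTIM array 3 or KOSTIM array 4 was left out (adjusted p = 0.0722, 0.0764, 0.0637 and 0.0643). Rfx5 rose from 7.10, 7.58, 7.91 and 7.48 to 8.03, 8.16, 8.16 and 8.05, by 0.58 ± 0.13 (SE; 1.5-fold; limma adjusted p = 0.00208).

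For H2-Eb1 the change was 0.38 (95% interval -0.07 to 0.84) and for Cd74 0.37 (0.08 to 0.67), with adjusted p = 0.254 and 0.0643. Cd74 was called without KO array 3 or KOSTIM array 2 (adjusted p = 0.0401 and 0.034), and with each array centred on its median (0.42, adjusted p = 0.0379). Limma also called it with dim genes left out, with a changed shrinkage and with a replicate block in the 8 knockout arrays alone (adjusted p = 0.0417, 0.049 and 0.0427). That block fit called H2-Eb1 too (adjusted p = 0.0407). Cd74 stayed uncalled in 21 of 27 alternatives and H2-Eb1 in 26 of 27. H2-Oa stood at 6.35 to 6.82 in KOSTIM, a change of 0.29 (95% interval 0.02 to 0.56; adjusted p = 0.118), and was called without KO array 1 (0.42; adjusted p = 0.00888). Ciita lay at 7.35, 7.31, 7.44 and 7.33, inside the range of unstimulated knockout arrays, a change of -0.16 (95% interval -0.48 to 0.15). H2-DMa was at 8.53, 8.61, 9.01 and 9.10, a change of -0.04 (95% interval -0.50 to 0.43). In the fit of the 10 arrays, which called 1962 of all genes against 4919, H2-Oa was the 1 member called, at 0.77 (adjusted p = 0.0258). There H2-Aa, H2-Ab1 and Rfx5 stood at 1.02, 0.74 and 0.57 (adjusted p = 0.2, 0.196 and 0.109).

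With LPS, the chains and Cd74 were lower in knockout than in wild-type cells, while for Ciita and H2-DMa no difference was called. The members counted 4 lower and 0 higher of 8, beside 3.05% of all genes called (1.26% lower and 1.8% higher). Their median difference was -0.51, against -0.01 for all genes. This comparison and the others share groups of arrays, so their values are set side by side and not correlated.

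H2-Aa was 2.65-fold lower in KOSTIM than in WTSTIM (-1.41 ± 0.206, SE), H2-Eb1 2.73-fold (-1.45 ± 0.217) and H2-Ab1 2.12-fold (-1.08 ± 0.164), with limma adjusted p of 0.00069, 0.000784 and 0.000856. H2-Eb1 lay at 12.12, 12.20, 11.63 and 11.36 in WTSTIM and at 10.47, 10.25, 10.57 and 10.23 in KOSTIM. Cd74 lay at 13.04, 13.08, 12.78 and 12.85 in WTSTIM and at 11.91, 11.80, 12.15 and 12.32 in KOSTIM, 1.86-fold lower (limma adjusted p = 0.00116). The groups did not overlap for any of the 4 genes, and the share of all genes without overlap was not counted.

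Ciita was the other way round in sign. Each KOSTIM array (7.31 to 7.44) lay above each WTSTIM array (6.8 to 7.23), but the difference of 0.34 missed the call (95% interval 0.03 to 0.66; adjusted p = 0.363). H2-DMa differed by -0.13 (95% interval -0.60 to 0.33), H2-Oa by 0.01 (-0.25 to 0.28) and Rfx5 by 0.16 (-0.11 to 0.43). In the 10 arrays limma called 0 of the 8 members and 89 of all genes, against 609 in the fit of 16 arrays. H2-Aa then stood at -1.26, H2-Ab1 at -1.05, H2-Eb1 at -1.6 and Cd74 at -0.62 (adjusted p = 0.149, 0.102, 0.0965 and 0.185). With a sex term and replicate block, 1 member was called (142 of all genes), H2-Eb1 at -1.17 (adjusted p = 0.0473).

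**Figure D2:**
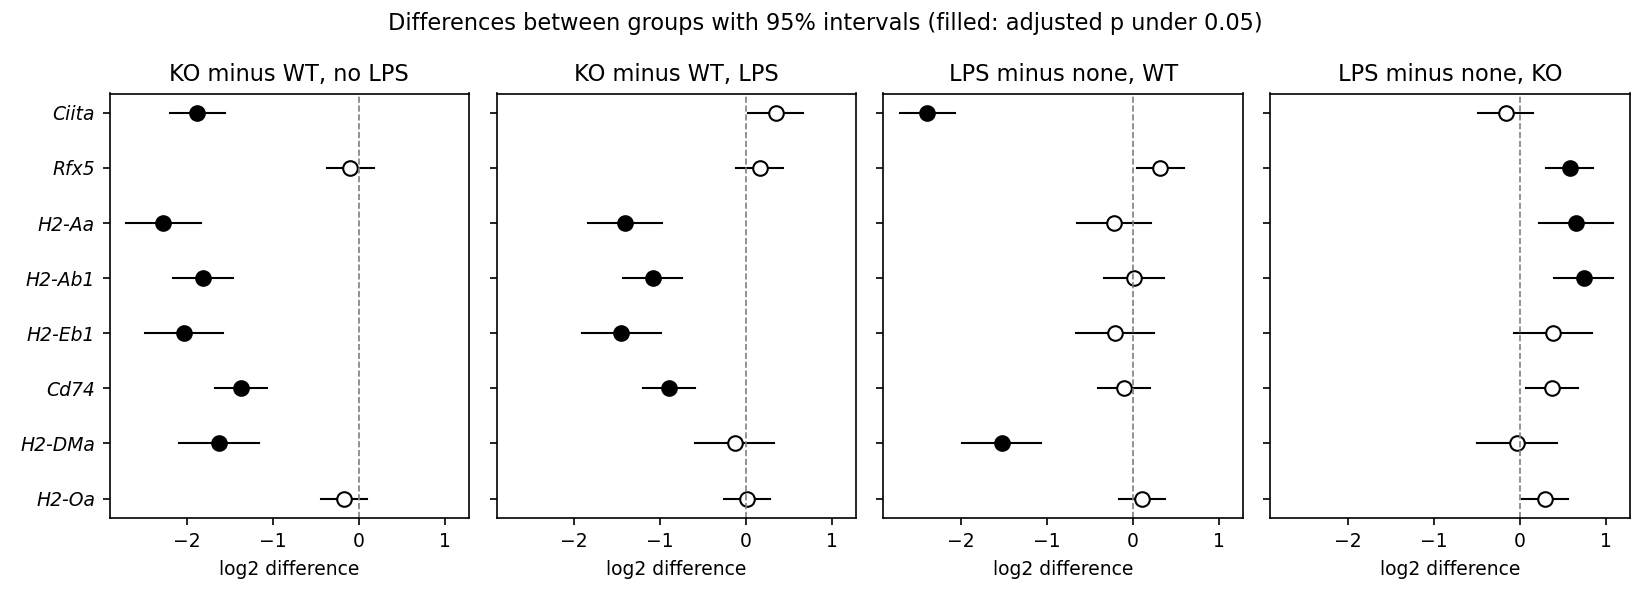
Log2 differences between groups (x axis) for the 8 genes, in 4 comparisons, with 95% intervals and filled points where the adjusted p was under 0.05. Between genotypes 6 genes have filled points to the left of 0 without LPS and 4 with it, and Ciita and H2-DMa are the 2 genes lowered by LPS in wild-type cells.

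The response to LPS differed between genotypes for Ciita and H2-DMa. This difference, the change in KO minus the change in wild type, was 2.22 ± 0.212 for Ciita (SE; limma adjusted p = 5.32e-05) and 1.49 ± 0.312 for H2-DMa (adjusted p = 0.0236). The 2 calls of 8, both higher, stand beside 1.29% of all genes called (0.988% higher and 0.301% lower). Ciita in unstimulated KO (mean 7.52) was already near the median of all gene means, 7.11. How far its signal could still fall there was not tested. Estimates for the other members were above 0 too, and none was called: 0.87 for H2-Aa (95% interval 0.26 to 1.48), 0.73 for H2-Ab1 (0.24 to 1.22), 0.59 for H2-Eb1 (-0.06 to 1.23), 0.48 for Cd74 (0.06 to 0.90), 0.26 for Rfx5 (-0.12 to 0.65) and 0.18 for H2-Oa (-0.19 to 0.56). Adjusted p for these 6 ran from 0.175 to 0.83. H2-DMa lost the call without WT array 2, WTSTIM array 2 or KOSTIM array 3, at 1.42, 1.38 and 1.43 (adjusted p = 0.0603, 0.0611 and 0.0586). In the 10 arrays, where 4 of all genes were called against 257, Ciita stood at 2.17 (adjusted p = 0.0995) and H2-DMa at 1.5 (adjusted p = 0.351).

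The order of the group means differed between members. For Ciita it was WTSTIM (7.01 ± 0.20, SD, n = 4), KOSTIM (7.36 ± 0.06), KO (7.52 ± 0.28) and WT (9.40 ± 0.31), and only the step from KO to WT passed the test. For H2-Aa it was KO (10.10 ± 0.29), KOSTIM (10.75 ± 0.16), WTSTIM (12.16 ± 0.38) and WT (12.37 ± 0.44), with the first and the second step called and not the third. H2-Eb1 (9.996, 10.38, 11.83 and 12.03) and Cd74 (11.67, 12.04, 12.94 and 13.04) had that same order, with the middle step called. In H2-Ab1 the wild-type groups were level, at 12.76 ± 0.31 without LPS and 12.78 ± 0.24 with it, above KOSTIM at 11.69 ± 0.13 and KO at 10.95 ± 0.31. H2-DMa had overlapping values in KOSTIM (8.81 ± 0.29), KO (8.85 ± 0.52) and WTSTIM (8.95 ± 0.34), below WT at 10.47 ± 0.24. KO was not tested against WTSTIM. Rfx5 ran from KO (7.52 ± 0.33) and WT (7.62 ± 0.14) to WTSTIM (7.94 ± 0.12) and KOSTIM (8.10 ± 0.07). H2-Oa stayed between 6.27 and 6.56 in all group means.

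The plot of Ciita against the chains sets the arrays apart by group. Wild-type arrays had a mean chain level of 11.98 to 12.81 without LPS and 11.92 to 12.55 with it, at Ciita levels that did not overlap. The knockout arrays with LPS and the wild-type arrays with LPS both had low Ciita (6.8 to 7.44 over the 8 arrays), with mean chain levels of 10.77 to 11.07 and 11.92 to 12.55. Low Ciita thus went with high chain RNA in one group and with lower chain RNA in the other. Ciita means in these 2 groups, 7.01 in WTSTIM and 7.36 in KOSTIM, lay near the median of all gene means, 7.11. RMA compresses changes of dim genes, so differences in Ciita between the 2 groups may be understated.

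**Figure D3:**
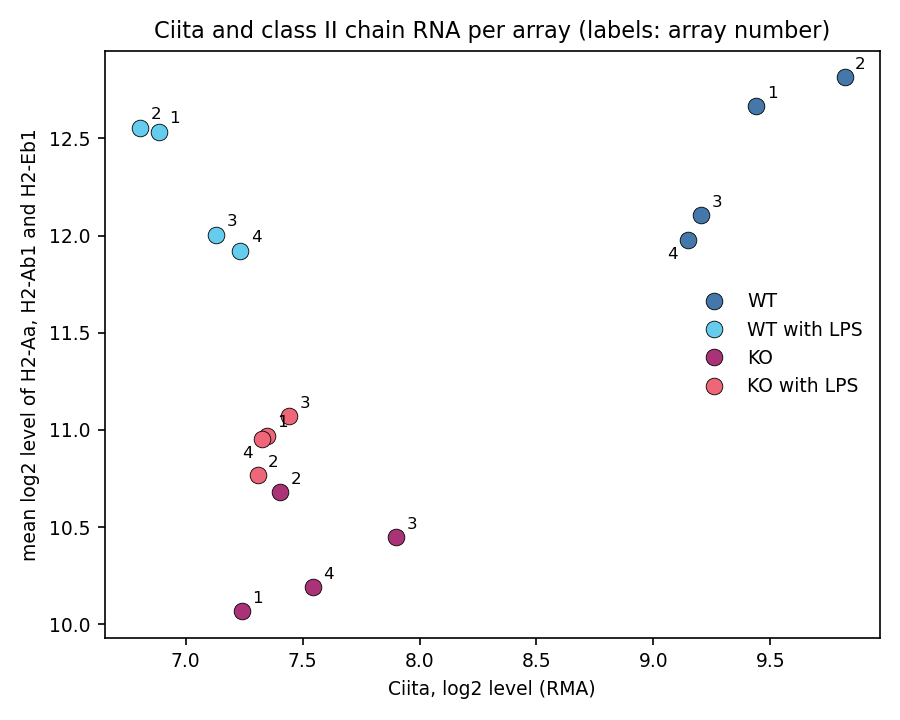
Each point is 1 array, with the log2 level of Ciita on the x axis and the mean log2 level of H2-Aa, H2-Ab1 and H2-Eb1 on the y axis. Wild-type arrays with LPS sit at the top left, with Ciita at 6.8 to 7.23 and chains at 11.92 to 12.55.

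By pattern over the 16 arrays, the genes outside the members most like Ciita were Med22, a Mediator subunit (Pearson r = 0.945), Nf2 (0.926), Clec10a, a macrophage lectin (0.92), Lpin2 (0.916), Agmo (0.915) and Tlr9, a DNA sensor (0.912), among 5107 genes with a range of at least 1. Of the members, H2-DMa was nearest to Ciita, with r = 0.904. Most like the mean of the 3 chains were Siglec1, sialoadhesin (0.927), Mmd (0.924), Fxyd2, a sodium pump subunit (0.919), Slc6a12, the betaine transporter (0.913), Acaa1a (0.907) and Slc38a2, an amino acid transporter (0.897). Cd74 had r = 0.978 with that mean, Ciita 0.425 and Rfx5 0.0998. The arrays fall into groups, so these values describe group means for the most part and carry no p.

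Of the other class II genes, 3 of 6 listed had a probe set of their own, and 2 of them rose with LPS in both genotypes. The counts of LPS calls in this and the following lists stand beside 30.8% of all genes called in wild-type cells (14% higher and 16.8% lower) and 24.7% in knockout cells (12% higher and 12.7% lower). Between genotypes the shares called were 1% without LPS and 3.05% with it, so 0 called in a short list lies near the background. At an unadjusted p under 0.05 the share of all genes was not counted. H2-Ob, the partner of H2-Oa, rose with LPS by 1.15 in wild-type and 0.88 in knockout cells (limma adjusted p = 0.000213 and 0.00325). Its arrays ran from 6.42 to 7.20 in WT, from 7.57 to 8.60 in WTSTIM, from 6.32 to 6.97 in KO and from 7.32 to 7.76 in KOSTIM. H2-Eb2, whose window holds the same X and Y pair as H2-Eb1, rose by 0.57 and 0.52 (adjusted p = 0.00227 and 0.00642), and between genotypes without LPS it differed by -0.12 (adjusted p = 0.912). H2-Ea, the I-E alpha chain, lay between 5.16 and 5.43 in all 16 arrays, below every array median (6.76 to 6.86). At so dim a signal a difference could hardly be seen, and the values do not show whether these cells make I-E. Of these 3 genes, 0 were called by limma between genotypes, without LPS or with it, and 0 had an unadjusted p under 0.05 (median differences -0.12 and -0.18). With array number fitted as a block, H2-Ob was called lower in knockout cells with LPS (-0.41; adjusted p = 0.0441).

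The partners of RFX5 and CIITA on the X and Y boxes, such as Rfxap, Rfxank, Nfya, Nfyb, Nfyc and Creb1, were not called between genotypes by limma (0 of 10 without LPS and 0 of 10 with it, and 0 at an unadjusted p under 0.05 in either state; median differences -0.06 and -0.02). With LPS in wild-type cells 2 of 10 rose and 3 fell, among them Rfxap, by 0.30, Rfxank, by 0.45, and Ep300, a histone acetyltransferase, by 0.50 on the log2 scale (limma adjusted p = 0.00272, 0.00756 and 0.000175). In KO cells 1 of 10 rose, Nfyb (0.62; adjusted p = 0.00803), and 2 fell, Rfxap and Ep300.

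Of 11 genes of the interferon-gamma route and other activators of Ciita, 1 was lower in unstimulated knockout cells. The list's median difference was -0.12. The gene called was Irf4, at 7.71, 7.98, 7.59 and 8.02 in WT and 6.65, 6.67, 7.14 and 7.44 in KO (-0.85; limma adjusted p = 0.0069). Irf4 lost the call with a sex term (-0.60; adjusted p = 0.0956) and in the 10 arrays (-0.38; adjusted p = 0.438). For the receptor chain Ifngr1 the difference was -0.27 (adjusted p = 0.586), for Irf1 -0.24 (0.8) and for Jak2 -0.17 (0.781). With LPS 1 of the 11 was lower in knockout cells, the kinase Jak2 (-0.54; adjusted p = 0.01). Jak2 lost the call without WTSTIM array 2 (-0.49; adjusted p = 0.0514) and in the 10 arrays (-0.64; adjusted p = 0.134). With the replicate block 3 more were called higher, Ifngr1 (0.43), Irf1 (0.59) and Irf2 (0.31), with adjusted p of 0.0371, 0.0377 and 0.0357. LPS itself called 4 of 11 up and 3 down in wild-type cells, with Jak2 at 2.88 and Irf8, Irf4 and Ifngr1 at -1.64, -1.69 and -1.15. In knockout cells it called 3 up and 3 down, with Jak2 at 2.52, Irf1 at 1.67, Irf8 at -1.36 and Irf4 at -1.07 (adjusted p at most 2.36e-05 for these 4). The fall of Ifngr1 was smaller in knockout cells, by 0.71 (adjusted p = 0.0499), a call that was lost under 15 of 25 alternatives, among them the 10 arrays (0.77; adjusted p = 0.617).

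Of 10 restraints on Ciita, 0 were called by limma between genotypes in either state, and 2 without LPS and 3 with it had an unadjusted p under 0.05 (median differences -0.01 and -0.09). With the replicate block Il10ra was lower without LPS (-0.46; adjusted p = 0.0293), and with LPS Socs3 was lower (-0.64) and Atf3 higher (0.36), with adjusted p of 0.0403 and 0.0441. LPS called 4 up and 1 down in each genotype. Socs3 rose by 3.70 in wild-type and 3.19 in knockout cells, Cebpb by 1.56 and 1.27 and Prdm1, a repressor of Ciita, by 0.87 and 0.61 (limma adjusted p at most 5.97e-05).

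Of 9 genes that act in endosomal processing of antigen and invariant chain (proteases, the reductase Ifi30 and the protease inhibitor Cst3), 6 fell and 1 rose with LPS in wild-type cells, and 5 fell and 1 rose in knockout cells. Ifi30, which reduces disulfide bonds of antigens, fell by 1.44 and 1.13, Lgmn by 0.83 and 0.58 and Ctsd by 0.60 and 0.43 on the log2 scale, while Sppl2a rose by 0.82 and 0.90 (limma adjusted p at most 0.000906). Between genotypes 0 of 9 were called by limma without LPS, and 2 had an unadjusted p under 0.05 (median difference 0.05). With LPS 1 was, Ctss, the protease that trims the invariant chain, which was higher in knockout cells (0.36; adjusted p = 0.0401) and lost the call under 13 of 27 alternatives, among them the 10 arrays (0.18; adjusted p = 0.609). Of 6 genes of class II turnover and trafficking, 0 were called by limma between genotypes in either state, with 1 at an unadjusted p under 0.05 without LPS and 2 with it. LPS called 1 up and 3 down in wild-type cells and 1 up and 1 down in knockout cells. Marchf1, which marks class II for degradation, differed by -0.23 without LPS and -0.42 with it (adjusted p = 0.687 and 0.0687).

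Class I counterparts are genes of MHC class I presentation, among them peptide transporter genes, B2m and the activator Nlrc5. Of 7 measured, 5 rose with LPS in wild-type and 6 in knockout cells, and 1, the peptide transporter gene Tap1, was lower in unstimulated knockout cells (-0.92; limma adjusted p = 0.00143). At an unadjusted p under 0.05, 6 of the 7 were lower without LPS and 0 higher, and the list median was -0.35, against 0.00427 for all genes. The share of all genes at that unadjusted cutoff was not counted, so the 6 of 7 has no background beside it. They were Tap1, Psmb8 (-0.51), Psmb9 (-0.47), Tapbp (-0.35), Tap2 (-0.34) and B2m (-0.16), and the last 5 had adjusted p of 0.0957 to 0.635. With LPS limma called 0 of 7, and 0 had an unadjusted p under 0.05. The rise of Tap1 with LPS was larger in knockout cells by 0.98 (adjusted p = 0.0179, and 0.98 with adjusted p = 0.47 in the 10 arrays). Tap1 lost the call without LPS in the 10 arrays (-0.82; adjusted p = 0.173) and with a sex term and replicate block (-0.68; adjusted p = 0.218). With the replicate block Psmb9 was lower too (-0.47; adjusted p = 0.0292). Nlrc5, which does for class I what CIITA does for class II, lay between 9.99 and 10.88 in WT and between 10.17 and 10.87 in KO.

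**Figure D4:**
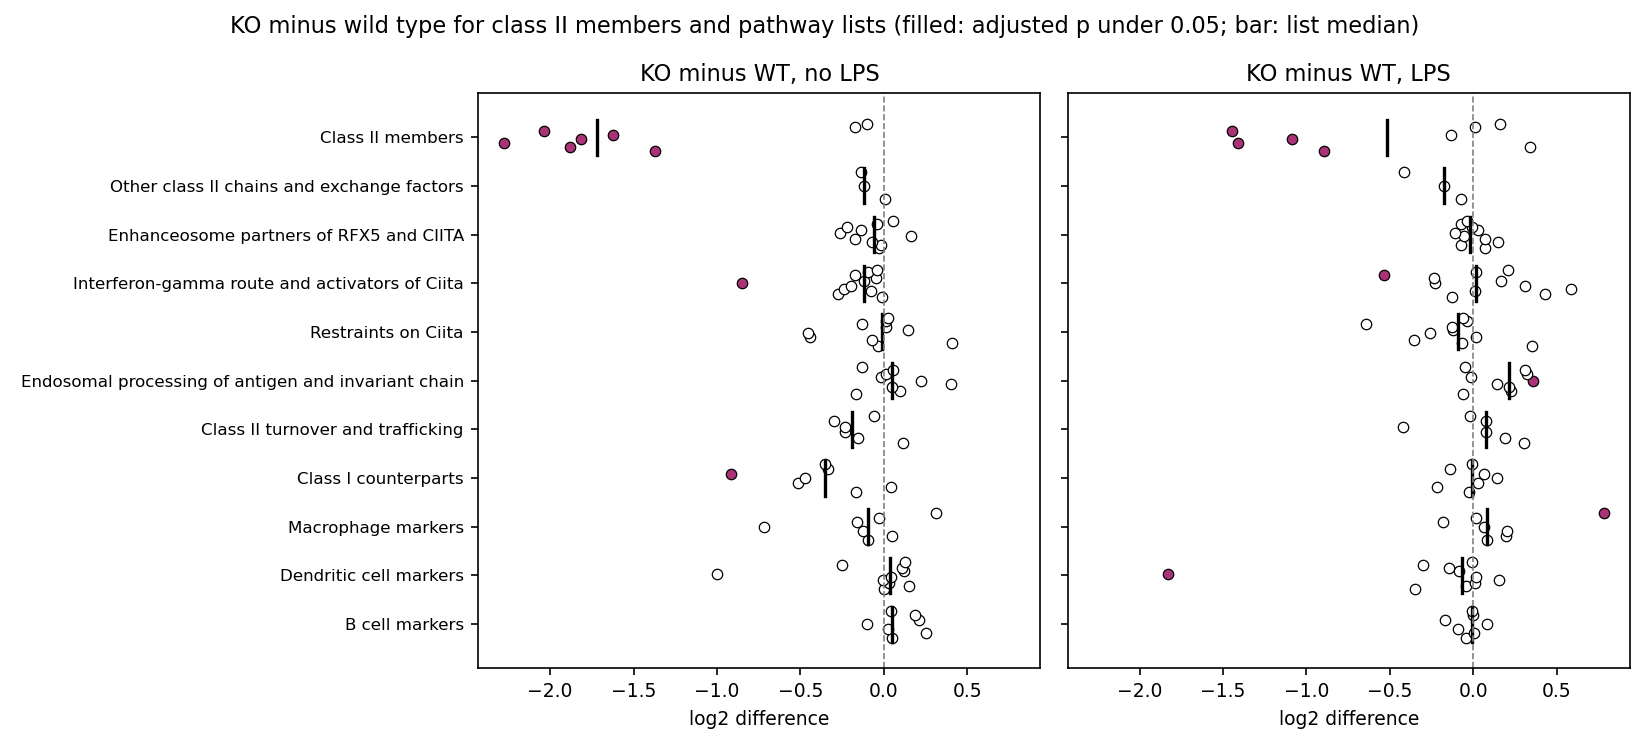
KO minus wild-type log2 differences (x axis) of each measured gene, grouped by list (y axis), without LPS (left) and with it (right); filled points had an adjusted p under 0.05 and bars are list medians. In the left panel 6 class II members lie between -2.28 and -1.37, and the other 2 filled points are Irf4 (-0.85) and Tap1 (-0.92).

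Of the markers of other cells that carry class II, Itgax was called between genotypes, with LPS. Signals of different probe sets do not rank RNA amounts, so marker levels are compared between groups of arrays, not with other genes. B cell markers (7 measured) had a summed log2 level of 8.78 to 8.99 in WT and 8.87 to 9.13 in KO, and 0 of 7 were called by limma between genotypes (2 at an unadjusted p under 0.05 without LPS, 0 with it). Of the 10 dendritic cell markers, Flt3 ran from 5.62 to 6.29 and Zbtb46 from 6.59 to 6.97 over all arrays. The summed level of the 10 was 10.1 to 10.4 in WT, 9.83 to 10.1 in KO, 11.5 to 12.3 in WTSTIM and 9.96 to 11 in KOSTIM. Without Itgax, a marker that macrophages also carry, it was 9.23 to 9.67, 9.45 to 9.61, 9.60 to 9.85 and 9.54 to 9.61. Itgax differed by -1 between genotypes without LPS (adjusted p = 0.555) and by -1.83 with it (limma adjusted p = 0.0229). It lost that call under 8 of 27 alternatives, among them without WTSTIM array 2 (adjusted p = 0.1), without KOSTIM array 3 (0.0569) with a sex term (-1.01; 0.268) and in the 10 arrays (-1.05; 0.23). Macrophage markers summed to 15.5 to 15.6 in WT and 15.4 to 15.5 in KO, with 0 of 7 called by limma and 1 at an unadjusted p under 0.05 (with the replicate block Fcgr1 was called, at -0.72 with adjusted p = 0.0497). With LPS they summed to 15.3 to 15.4 in WTSTIM and 15.39 to 15.43 in KOSTIM, and Mertk was higher in knockout cells (0.79; adjusted p = 0.00891), a call lost with a sex term (0.67; adjusted p = 0.0915) and in the 10 arrays (0.66; adjusted p = 0.339). Of T and NK cell markers 0 of 5 and of neutrophil markers 0 of 6 were called by limma between genotypes in either state, with 1 and 0 at an unadjusted p under 0.05 without LPS and 0 and 1 with it. The part of Itgax or Mertk in the class II differences was not tested.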

How the data were processed

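The deposited values are log2 expression levels per probe set, which the authors made with RMA, per the submitters' processing notes, with no version. Of 34760 probe sets, platform annotation gave 1 gene for 21640, several for 1321 and none for 11799. Probe sets with several genes were not named, which leaves out H2-DMb1, H2-DMb2, H2-K1 and H2-D1. For each of 19937 genes the probe set with the highest mean over 16 arrays was used.

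All arrays entered a single limma 3.58.1 model in R 4.3.3 (lmFit, eBayes) with a mean per group and 12 residual degrees of freedom. Adjusted p values are Benjamini-Hochberg over all genes. The code was tested on simulated data. The members and lists were chosen with earlier results of these data known. The rule names the 8 members, Nfat5, up to 4 genes with the smallest p per list and comparison, and the 6 genes of most similar pattern, leaving out predicted genes. Cell markers, genes called with a replicate block, Nlrc5, Tapbp, B2m and Cst3 were named beyond that rule, after their values were seen.

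Titles number the arrays 1 to 4 in every group. Deviations from the group means of same-numbered wild-type and knockout arrays correlated at 0.16 to 0.442 without LPS and 0.186 to 0.518 with it, all above 0.1, so these were taken as paired, and the block is an alternative. Other alternatives left out each array, the knockout arrays with high Kdm5d or dim genes, averaged a gene's probe sets, changed the centring or the shrinkage, fitted only the groups compared, or added a sex term. Arrays of a group differed by an SD of 0.172 to 0.381 over genes, so none was counted as a duplicate. The number of arrays limits the precision.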

Additional observations from a re-analysis of the deposited data

Results flagged for a closer look

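Ciita and H2-DMa responded to LPS differently in the 2 genotypes, with differences in log2 change of 2.22 and 1.49 (limma adjusted p = 5.32e-05 and 0.0236). H2-DMa was 8.07 in unstimulated KO array 1, against 9.08 in the nearest other array of that group, a gap of 0.955 of the range. Rfx5 was 7.41 in unstimulated wild-type array 1, against 7.69 in the nearest, a gap of 0.98 of the range. Both gaps are above the limit of Dixon's test at 95%. Chance flags about 1 in 20 groups, and 32 sets of 4 values were examined.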

How the results depend on the processing

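Over the single-member results, 1001 alternative values kept direction and side of the threshold, 23 lost a call, 16 gained one and 19 changed sign, none of these 19 a call. The cause of these changes was not tested, except that the 10 arrays with Xist above Kdm5d hold only 1 knockout array per treatment. In those arrays limma called 1 member for LPS in KO, 0 for KO against wild type with LPS and 0 for the difference in response, against 3, 4 and 2. Over all genes it called 1962, 89 and 4, against 4919, 609 and 257. With a sex term and replicate block, KO against wild type with LPS had 1 (142 of all genes). For the difference in response, array numbers 1 to 3 gave 1 (153 of all genes), and leaving out single arrays 1 to 2. LPS in KO had 5 with a replicate block in its 8 arrays alone (5251 of all genes).

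With the replicate block in all arrays, the members called were 3 for LPS in wild type, 3 for LPS in KO, 6 and 4 for KO against wild type without and with LPS, and 2 for the difference in response (over all genes 6874, 5624, 327, 950 and 451, against 6132, 4919, 200, 609 and 257). The block changed no member's call between genotypes. Arrays with and without LPS were not taken as paired, since number 1 correlated at 0.0454 in wild type and -0.0602 in KO. Numbers 2 to 4 correlated at 0.248 to 0.429 in wild type and 0.138 to 0.558 in KO. The sex markers also matched by number in the knockout groups, so a shared origin of same-numbered arrays is not excluded. For LPS in wild type the block added Rfx5 (limma adjusted p = 0.0354).

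Signs turned for values that were not called. H2-Ab1 with LPS in wild type ran from -0.086 to 0.11 without single arrays and was -0.020 in numbers 1 to 3. H2-DMa with LPS in KO ran from -0.29 to 0.059 and was 0.012 with arrays centred on their medians. Rfx5 between genotypes without LPS ran from -0.23 to 0.037. With LPS, H2-DMa between genotypes ran from -0.25 to 0.022 and was 0.15 with a sex term, 0.25 with the block too and 0.16 in the 10 arrays. H2-Oa there ran from -0.072 to 0.086 and was -0.055 in numbers 1 to 3. A filter on dim genes left H2-Oa out.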
